A study of Mus musculus with 6 samples.

Results

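The colony-stimulating factors (CSFs) and their receptors were followed across 6 mouse osteosarcomas, 3 with Skp2 and 3 without. The genes were taken by name and comprised 4 ligands (Csf1, Il34, Csf2 and Csf3) and 5 receptor chains (Csf1r, Csf2ra, Csf2rb, Csf2rb2 and Csf3r), that is 9 of the 56196 genes listed. Of the 9, 8 passed the filter on low counts (3 of 4 ligands and 5 of 5 receptor chains) and were tested among 15361 genes. Csf2 had too few counts.

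RNA from bulk tumour tissue was enriched for polyadenylated transcripts and sequenced. All 6 tumours carried Osx1-Cre;Rb1lox/lox;p53lox/lox, in which Cre is driven by Osx1 (Sp7), a gene of osteoblast precursors, and removes Rb1 and p53 in that lineage. The 3 tumours called DKO carried no further allele. The 3 called TKO were also SKP2-/-, an allele written without a lox site, so, read as written, host cells such as macrophages lacked Skp2 as well. Replicate 1 of each group was from a male and replicates 2 and 3 were from females, and tumours are called DKO1 to DKO3 and TKO1 to TKO3. No age is given in the labels, nor whether separate mice gave the tumours, so the spread behind the p-values is that between these samples.

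CSF1 and IL-34 are separate ligands of 1 receptor tyrosine kinase, CSF1R, which monocytes, macrophages and osteoclasts need to survive and differentiate. CSF2 (GM-CSF) binds a ligand-specific alpha chain, CSF2RA, which signals through the common beta chain CSF2RB shared with the receptors of IL-3 and IL-5. Mice have an additional beta chain, CSF2RB2, that works with the IL-3 receptor. CSF3 (G-CSF) acts on CSF3R and drives the production and release of neutrophils. In bone, osteoblasts and stromal cells are known sources of CSF1, and fibroblasts and endothelial cells make CSF2 and CSF3 after inflammatory stimulation.

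Libraries held 17063231 to 22488819 gene counts. Skp2, which checks the labels, had 20, 64 and 46 counts in DKO1 to DKO3 and 0 counts in each TKO library. TKO1 was unlike TKO2 and TKO3. Its log2 counts-per-million (CPM) correlated with those of TKO2 and TKO3 at 0.83 and 0.81, against 0.91 between TKO2 and TKO3 and 0.93 to 0.95 among the DKO tumours. The osteoblast genes Sp7 and Ibsp had 0 counts in TKO1, Alpl had 2 and Bglap had 9, whereas TKO2 and TKO3 had 4280 and 8501 counts of Sp7 and 4988 and 3009 of Bglap. The labelled bone origin is also thinly marked in DKO, with 160, 0 and 7 counts of Sp7 and 0, 3 and 4 of Bglap in DKO1 to DKO3, although Runx2 had 1402 or more counts in every tumour. DKO libraries held almost no RNA of blood or vessel cells: the 8 endothelial markers summed to 9.71 to 11.4 CPM in DKO and 165 to 833 CPM in TKO, and the 3 C1q genes of macrophages had 0 counts in DKO. Member results and list counts that change without TKO1 are therefore given both ways.

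The 5 receptor chains lay higher in every TKO tumour than in any DKO tumour, and 4 of them rose. Among the ligands Csf3 fell, while Csf1 and Il34 did not pass the test. In all 5 of 8 tested members changed, 4 upward and 1 downward, at an adjusted p under 0.05 in edgeR's quasi-likelihood test. Over all genes tested 7.36% changed, 4.89% upward and 2.47% downward. Values of the 2 groups did not overlap for 6 of the 8 tested members and for 32.9% of all genes tested. Without TKO1, 6 members changed (5 upward, 1 downward), against 14.6% of 16384 genes (9.61% upward and 4.94% downward). Of the called members, Csf3, Csf2rb, Csf2rb2 and Csf3r passed the count filter through 1 group alone. The other group held 7, 19, 8 and 0 counts of them. With at least 1 CPM required in each group these were not tested. Of the 4 members then tested 1, Csf1r, was called, against 158 of 13246 genes. The 5 calls rested on all 3 DKO tumours. With any one of them left out 0 members were called and adjusted p lay between 0.0581 and 0.105, although 6 members kept an unadjusted p under 0.05 each time. Leaving out DKO1, DKO2 or DKO3 left 39, 2 and 0 genes called in the whole table.

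**Figure D1:**
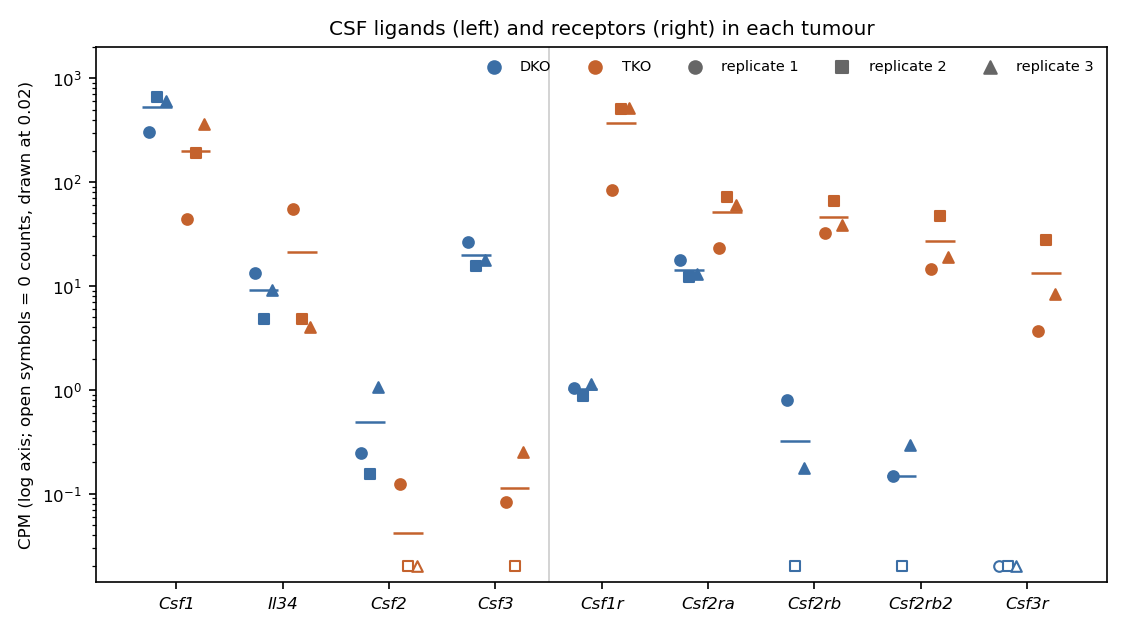
CPM on a log axis of the 4 ligands (left of the line) and the 5 receptor chains (right) in each tumour. Colours are the 2 groups, shapes the replicates, bars the group means, and open symbols are 0 counts drawn at 0.02. Csf3 lies at 15.7 CPM or more in DKO and at 0.255 or less in TKO, and the Csf2rb, Csf2rb2 and Csf3r symbols of TKO lie above all those of DKO.

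Csf1 was the most abundant ligand per length in 5 of 6 tumours. The exception was TKO1, with 28.1 CPM per kilobase of exon of Il34 against 8.45 of Csf1. Csf1 (ENSMUSG00000014599.10, GRCm38 chr3:107741048-107760469) had 307, 664 and 603 CPM in DKO1 to DKO3 and 44.6, 189 and 363 CPM in TKO1 to TKO3. TKO1 was the lowest of the 6, and TKO3 lay above DKO1, so the groups overlapped. Means were 525 ± 191 CPM in DKO and 199 ± 159 CPM in TKO (SD, n = 3), a log2 fold change of −1.40 (95% interval −3.11 to 0.31) that did not pass the test (adjusted p = 0.279). Without TKO1 it was −0.93 (adjusted p = 0.223).

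Il34 encodes the other CSF1R ligand, known best from keratinocytes and neurons. Il34 (ENSMUSG00000031750.15, chr8:110741829-110805924) had 13.2, 4.85 and 9.20 CPM in DKO and 55.0, 4.82 and 4.03 CPM in TKO. The high TKO mean of 21.3 ± 29.2 CPM (SD, n = 3; DKO 9.08 ± 4.17) came from TKO1 alone, the tumour with the least Csf1. The log2 fold change was 1.23 (95% interval −1.26 to 3.72, adjusted p = 0.507), and without TKO1 it turned to −1.04 (adjusted p = 0.265). The antisense genes Gm15894 and Gm15895 share 22 and 75 of the 1959 exon bases of Il34, and counting each strand alone added 303 reads to its 1319 in TKO1 and 11 to 29 in the others.

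Csf2, the granulocyte-macrophage factor, was near absent from all 6 tumours. Csf2 (ENSMUSG00000018916.5, chr11:54247271-54249667) had 5, 3 and 18 counts in DKO and 3, 0 and 0 counts in TKO, 26 against 3 in all. At the depth of these libraries 1 count is 0.0417 to 0.0594 CPM. The ratio of DKO to TKO was 9.87 with an exact 95% counting interval of 3.02 to 50.9, which covers counting error only. Gm12223, an antisense gene, shares 96 of the 800 exon bases of Csf2, and the libraries carry no strand mark, so reads of the pair cannot be told apart there. With the strand columns summed Csf2 had 21, 13 and 39 counts in DKO and 8, 0 and 0 in TKO. With no count filter the log2 fold change of Csf2 was −3.33 (adjusted p = 0.30).

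Csf3, the neutrophil growth factor, fell in TKO by the largest factor of the ligands tested. Csf3 (ENSMUSG00000038067.2, chr11:98701263-98703629) had 26.4, 15.7 and 17.7 CPM in DKO, from 530, 308 and 298 counts. TKO1, TKO2 and TKO3 had 0.0834, 0 and 0.255 CPM, from 2, 0 and 5 counts. Every DKO tumour was above every TKO tumour. The mean was 19.9 ± 5.67 CPM in DKO against 0.113 ± 0.13 CPM in TKO (SD, n = 3), a log2 fold change of −7.41 (SE 1.02, 95% interval −9.83 to −5.00, adjusted p = 0.0158). Without TKO1 it was −7.25 (adjusted p = 0.0119).

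Where a promoter table held the gene, the bases before the RefSeq start were searched for 3 motifs on both strands: the core bound by PU.1, the myeloid factor encoded by Spi1 (GAGGAA), the NF-kappaB consensus and the AP-1 core (TGANTCA). The table (RefSeq, GRCm38.p6) held 5 of the 9 genes: Csf1, Csf2, Csf2ra, Csf2rb2 and Csf3r. Csf1, the ligand with the highest group means, is shown because it holds an NF-kappaB match, in capitals, at bases −154 to −145 from the start (chr3:107760470-107760719, minus strand).
Csf1: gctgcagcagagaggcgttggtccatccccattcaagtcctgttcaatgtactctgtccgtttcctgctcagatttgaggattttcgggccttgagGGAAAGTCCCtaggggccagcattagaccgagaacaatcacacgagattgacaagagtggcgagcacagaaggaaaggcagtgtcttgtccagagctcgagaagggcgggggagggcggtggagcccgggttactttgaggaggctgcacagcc
Of 32817 windows of 250 bases 9.55% held that consensus. The AP-1 core, present in 6.75% of windows, was not found in these 5. The RefSeq start of Csf2 lies 232 bases upstream of the GENCODE start, so its window leaves out the bases just before the GENCODE start.

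Csf1r rose and had the highest receptor level in each TKO tumour. Csf1r (ENSMUSG00000024621.16, chr18:61100598-61132149) encodes the receptor of CSF1 and IL-34. It had 1.05, 0.869 and 1.13 CPM in DKO (21, 17 and 19 counts) and 83.7, 510 and 514 CPM in TKO (2009, 10576 and 10089 counts). All TKO tumours were above all DKO tumours, and TKO1 was the lowest of the TKO group. Means were 1.01 ± 0.133 and 369 ± 247 CPM (SD, n = 3), with a log2 fold change of 8.5 (SE 0.88, 95% interval 6.42 to 10.58, adjusted p = 0.0111).

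The size of that rise depends on how reads in a shared stretch are counted. Csf1r shares 873 of its 5774 exon bases with Hmgxb3 on the other strand, and the column of either-strand counts leaves out reads that fall in both genes. Counting each strand alone added 257, 385 and 260 reads in DKO and 311, 215 and 270 in TKO, a like number in every tumour. On the summed strand columns Csf1r stood at 17.0 ± 3.37 CPM in DKO and 382 ± 247 CPM in TKO (SD, n = 3), 22.5-fold apart in place of 364-fold. Fitted on the first or second strand column, the log2 fold change was 4.43 (adjusted p = 0.0212) or 4.54 (adjusted p = 0.0203). Read by read the 2 genes cannot be told apart there, and the summed columns give every added read to Csf1r. In DKO the shared stretch held 257, 385 and 260 reads, against 21, 17 and 19 counts of Csf1r outside it.

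Csf2ra, the alpha chain that gives the CSF2 receptor its specificity, was the 1 chain with clear counts in DKO. Csf2ra (ENSMUSG00000059326.7, chr19:61223957-61228429) had 17.9, 12.2 and 13.1 CPM in DKO and 23.0, 71.7 and 59.9 CPM in TKO. TKO1 lay just above DKO1, and the groups did not overlap. Means were 14.4 ± 3.07 and 51.5 ± 25.4 CPM (SD, n = 3), a log2 fold change of 1.84 (SE 0.47, 95% interval 0.73 to 2.95) short of the threshold (adjusted p = 0.0624). It passed without TKO1 (log2 fold change 2.19, adjusted p = 0.00885), by DESeq2 (adjusted p = 0.00373) and with no count filter (adjusted p = 0.0352). Under the other 14 of 17 alternatives it did not pass, with an adjusted p of up to 0.210 (without DKO2).

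Both beta chains rose. Csf2rb (ENSMUSG00000071713.6, chr15:78325752-78353847) had 0.797, 0 and 0.178 CPM in DKO and 32.1, 66.5 and 39.0 CPM in TKO, means of 0.325 ± 0.418 and 45.9 ± 18.2 CPM (SD, n = 3). Its log2 fold change was 7.10 (SE 1.16, 95% interval 4.36 to 9.84, adjusted p = 0.0228). Csf2rb2 (ENSMUSG00000071714.7, chr15:78282507-78305721) had 0.149, 0 and 0.297 CPM in DKO and 14.7, 47.0 and 19.1 CPM in TKO, means of 0.149 ± 0.148 and 26.9 ± 17.5 CPM (SD, n = 3). Its log2 fold change was 7.48 (SE 1.09, 95% interval 4.89 to 10.06, adjusted p = 0.0182). For both genes TKO2 was the highest tumour and no TKO value overlapped a DKO value. Csf2rb lost its call without TKO2 (adjusted p = 0.0585) or TKO3 (adjusted p = 0.0511).

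The beta chains are neighbours, 20030 bases apart, and nearly the same in sequence, which bears on how their reads were assigned. In GENCODE M21 their coding sequences are 2688 and 2634 bases long and identical at 2503 of 2628 aligned bases (95.2%), with a longest identical run of 242 bases. Of the 50-base stretches of Csf2rb 26.03% also occur in Csf2rb2, and of the 100-base stretches 11.0%, so reads that lie wholly in such a stretch cannot be assigned to either gene. The stretch of 120 bases that differs most between them is shown, coding bases 309 to 428 of Csf2rb and 312 to 431 of Csf2rb2, with the 22 bases that differ in capitals.
Csf2rb: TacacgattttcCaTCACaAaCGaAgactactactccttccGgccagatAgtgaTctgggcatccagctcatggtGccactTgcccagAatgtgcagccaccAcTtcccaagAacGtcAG
Csf2rb2: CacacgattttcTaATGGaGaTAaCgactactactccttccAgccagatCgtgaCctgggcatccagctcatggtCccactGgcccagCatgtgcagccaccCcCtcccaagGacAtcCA
Over 2033 stretches of that length they differed at a median of 4 bases. Csf2rb2 took 31.4%, 41.4% and 32.9% of the CPM of the pair in TKO1, TKO2 and TKO3, a split that is uncertain to the extent that shared reads were not counted.

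Csf3r, the CSF3 receptor of granulocytes, was the only member with 0 counts in every DKO tumour. Csf3r (ENSMUSG00000028859.14, chr4:126024550-126044440) had 89, 571 and 166 counts in TKO, that is 3.71, 27.5 and 8.46 CPM, with a mean of 13.2 ± 12.6 CPM (SD, n = 3). Against a floor of 3 counts over the DKO group it was at least 249-fold higher in TKO (adjusted p = 0.0297). Without TKO3 the call was lost (adjusted p = 0.0645). Csf3r was thus absent from the counts of the 3 tumours with Csf3, and the 3 tumours with Csf3r held 7 counts of Csf3 in all.

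The 3 receptor chains in the promoter table each held the PU.1 core, which 23.3% of the 32817 windows hold. The windows are shown with the core, or its reverse complement in Csf2rb2, in capitals. In Csf2ra it stood at bases −14 to −9 and −8 to −3 from the start (chr19:61228419-61228668, minus strand), and in Csf2rb2 at −167 to −162 on the opposite strand (chr15:78305722-78305971, minus strand). In Csf3r it stood at −86 to −81, and only the 30 bases around it are given (chr4:126024561-126024590, plus strand). The RefSeq starts of Csf2ra and Csf3r lie 11 and 109 bases downstream of the GENCODE gene starts. By GENCODE the Csf3r core and the second Csf2ra core thus lie inside the gene, and the first Csf2ra core lies partly inside it.
Csf2ra: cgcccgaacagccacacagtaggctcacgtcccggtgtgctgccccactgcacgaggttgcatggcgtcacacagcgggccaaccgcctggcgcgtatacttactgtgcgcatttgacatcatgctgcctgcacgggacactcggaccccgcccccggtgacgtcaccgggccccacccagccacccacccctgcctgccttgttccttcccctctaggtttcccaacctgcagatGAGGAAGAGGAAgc
Csf2rb2: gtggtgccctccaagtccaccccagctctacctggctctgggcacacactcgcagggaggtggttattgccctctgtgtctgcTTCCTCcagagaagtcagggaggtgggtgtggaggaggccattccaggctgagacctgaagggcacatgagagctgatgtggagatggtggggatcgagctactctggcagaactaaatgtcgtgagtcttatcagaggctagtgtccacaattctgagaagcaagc
Csf3r: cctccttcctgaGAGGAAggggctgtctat
The Csf3r window also held an NF-kappaB match, at −129 to −120. These matches describe the letters of the windows, and binding was not measured.

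**Figure D2:**
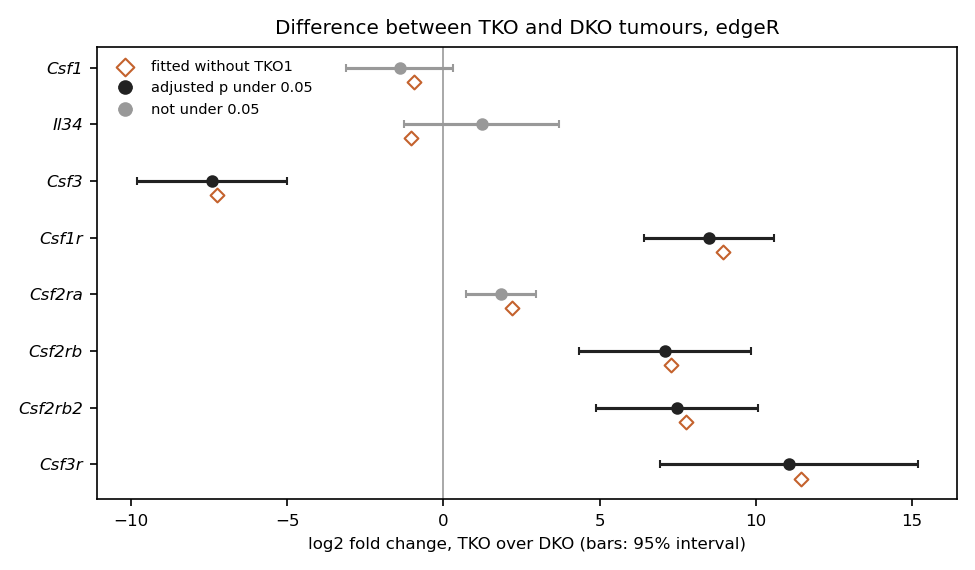
Log2 fold change (TKO over DKO) of the 8 tested members from edgeR, with 95% intervals as bars and the fit without TKO1 as open diamonds. Black marks an adjusted p under 0.05: Csf3 lies at −7.41, and Csf1r, Csf2rb, Csf2rb2 and Csf3r lie above 0, while Il34 changes side without TKO1. The position of Csf3r, with 0 counts in DKO, depends on the prior count of the fit.

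Set side by side per kilobase of exon, Csf1 came first in DKO and Csf1r first in TKO. By mean CPM per kilobase the order in DKO was Csf1, Csf3, Csf2ra, Il34, Csf2, Csf1r, Csf2rb, Csf2rb2 and Csf3r. The ranges of Csf2ra and Il34, of Csf2 and Csf1r, of Csf2rb and Csf2rb2 and of Csf2rb2 and Csf3r overlapped, and other neighbours did not. In TKO the order was Csf1r, Csf1, Csf2ra, Il34, Csf2rb, Csf2rb2, Csf3r, Csf3 and Csf2, and there the neighbours Csf3r and Csf3 alone did not overlap. With the strand columns summed, which gives Csf1r every read shared with Hmgxb3, Csf1r stood at 2.40, 3.56 and 2.87 CPM per kilobase in DKO.

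Csf1 exceeded Csf1r in every DKO tumour and lay below it in every TKO tumour. Csf1 stood at 58.2, 126 and 114 CPM per kilobase in DKO1 to DKO3, and Csf1r at 0.181, 0.150 and 0.195. In TKO1 to TKO3 Csf1 stood at 8.45, 35.7 and 68.7 CPM per kilobase and Csf1r at 14.5, 88.3 and 89.1. The log2 ratio of Csf1 to Csf1r, with 0.5 CPM per kilobase added to each, was 6.43, 7.60 and 7.37 in DKO and −0.74, −1.29 and −0.37 in TKO. The group means differed by −7.94 on the log2 scale, given as a description with no test. With the strand columns summed, which gives Csf1r every read shared with Hmgxb3, the ratios were 4.34, 4.96 and 5.09 in DKO. They were −0.95, −1.32 and −0.41 in TKO, a difference of −5.69.

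The Csf3 to Csf3r log2 ratio was 5.26, 4.54 and 4.70 in DKO and −1.45, −4.02 and −2.06 in TKO. Csf3r had 0 counts in DKO, so the DKO values are set by the 0.5 added, and with 0.1 or 1 added they were 6.81 to 7.55 or 3.6 to 4.30. Against a floor of 3 Csf3r counts over the group, Csf3 was at least 967-fold higher than Csf3r per length in DKO. The Il34 to Csf1r ratio was 3.41, 2.19 and 2.90 in DKO, and in TKO it was 0.93, −4.91 and −5.13, so TKO1 kept more Il34 than Csf1r per length. The Csf2 to Csf2ra ratio was below 0 in all 6 tumours, −3.05, −2.78 and −1.46 in DKO and −3.70, −5.67 and −5.42 in TKO. On either-strand counts none of the 4 ratios overlapped between the groups. With the strand columns summed, which gives Csf1r every read shared with Hmgxb3, the Il34 to Csf1r ratio was 1.40, −0.28 and 0.85 in DKO. It was 1.02, −4.80 and −5.02 in TKO, so that the groups overlapped through TKO1. The other 3 pairs still did not overlap.

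**Figure D3:**
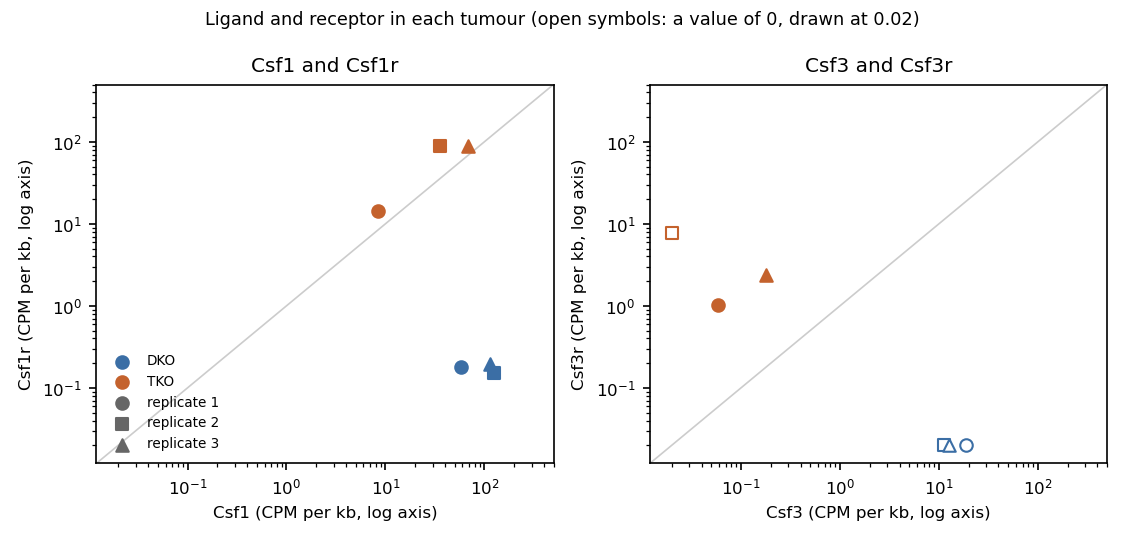
Ligand (x axis) against receptor (y axis) in each tumour, both in CPM per kilobase of exon on log axes, for Csf1 with Csf1r and Csf3 with Csf3r. Colours are groups, shapes replicates, open symbols have a value of 0 drawn at 0.02, and the line marks equal levels. DKO tumours lie below the line and TKO tumours above it in both panels.

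RNA of macrophages, which carry these receptors, was also higher in TKO. The 20 macrophage markers summed to 43.9, 165 and 119 CPM in DKO and 1842, 3842 and 2898 CPM in TKO. Of the 19 tested 16 rose and 0 fell, among them C1qb (at least 4794-fold higher), C1qc (at least 3483-fold) and the lysosomal gene Laptm5. Cd68 and Mertk, named after their values were seen, made up 58.0%, 93.3% and 85.6% of the sum in DKO1 to DKO3 and 4.38% to 12.6% in TKO, and the other markers summed to 11.0 to 18.4 CPM in DKO. In bulk tissue fewer cells of a type and less RNA per cell cannot be told apart. Csf1r made up 4.55%, 13.3% and 17.7% of the summed macrophage CPM in TKO1 to TKO3 and 2.38%, 0.528% and 0.951% in DKO1 to DKO3. The summed strand columns give Csf1r every read shared with Hmgxb3. By them the shares of Csf1r were 5.25%, 13.5% and 18.2% in TKO and 31.6%, 12.5% and 14.0% in DKO, so the groups overlapped. Csf2rb made up 1.74%, 1.73% and 1.35% in TKO and 1.82%, 0% and 0.150% in DKO. Csf2ra made up less of the macrophage sum in TKO, 1.25%, 1.87% and 2.07%, than in DKO, 40.7%, 7.39% and 11.0%. Csf3r amounted to 18.1%, 69.3% and 3.73% of the summed neutrophil CPM in TKO1 to TKO3. In TKO3 Mmp8, named after its values were seen, gave 213 of the 227 CPM of that sum. It gave 6.04 and 2.22 CPM in TKO1 and TKO2, so the low share in TKO3 rests on 1 gene. The part of macrophage content in the receptor rise was not tested.

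Neutrophils and osteoclasts are other cells with these receptors. Of 12 neutrophil markers 8 were tested and 4 rose (5 of 9 without TKO1): S100a9, Cd177, Ngp and Retnlg, each with 0 counts in every DKO tumour. S100a9, a calgranulin, had 95, 240 and 74 counts in TKO (at least 121-fold higher, adjusted p = 0.0236). Cd177, Ngp and Retnlg rest on 79, 112 and 66 counts over the TKO group. Other markers, S100a8 and Camp, named after their values were seen, had counts in DKO. S100a8 had 40, 16 and 33 counts in DKO and 95, 156 and 58 in TKO (adjusted p = 0.184). Camp, not tested, had 47, 3 and 6 counts in DKO and 10, 35 and 9 in TKO. Ly6g, a defining marker named after its values were seen, had 2, 1 and 0 counts in DKO and 0, 0 and 1 in TKO. Of 9 osteoclast markers 7 were tested and 1 rose, the acid phosphatase Acp5, at 0.913 ± 0.796 CPM in DKO and 1060 ± 933 CPM in TKO (SD, n = 3, adjusted p = 0.0308). The osteoclast markers summed to 60.3 CPM in TKO1 and to 9096 and 10074 CPM in TKO2 and TKO3, against 838 to 1937 CPM in DKO. Ctsk gave 1834, 757 and 441 CPM of the sums in DKO1 to DKO3, and Mmp9 gave 319 CPM in DKO3. Acp5 was 31.5 CPM in TKO1 and 0.0594 to 1.63 CPM in DKO. Ctsk, Mmp9, Atp6v0d2 and Itgb3 were instead lower in TKO1 than in every DKO tumour. Ctsk and Itgb3 were named after their values were seen. Without TKO1 7 of 9 osteoclast markers rose. TKO1 held Csf1r and macrophage markers with few osteoclast transcripts.

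Among the known sources of CSF1, the osteoblast markers summed to 29721, 19636 and 19027 CPM in DKO and 4719, 65655 and 89754 CPM in TKO. Col1a1, Col1a2, Sparc and Spp1, matrix genes that other cells also make and named after their values were seen, gave 99.4% to 99.6% of the sum in DKO and 92.2% to 98.8% in TKO, and the other 7 summed to 87.4 to 138 CPM in DKO, 58.9 CPM in TKO1 and 2744 and 7021 CPM in TKO2 and TKO3. Of 11 listed 9 were tested and 0 passed, or 5 of 11 (all higher) without TKO1. Alpl, the bone alkaline phosphatase, had 9.19 ± 8.65 CPM in DKO and 1190 ± 1063 CPM in TKO (SD, n = 3, adjusted p = 0.157), and Runx2, named after its values were seen, had 91.9 ± 7.44 and 146 ± 91.8 CPM (adjusted p = 0.444). Csf1 was lowest in TKO1, which also had the lowest osteoblast sum, while TKO2 and TKO3 had a higher osteoblast sum than every DKO tumour and 189 and 363 CPM of Csf1. Of 7 fibroblast markers 0 passed, or 2 (both higher) without TKO1.

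Of the other cell type lists, 8 of 8 endothelial markers rose (Cdh5 from 0.459 to 119 CPM, Tie1 from 0.0396 to 59.7 CPM) and 3 of 3 tested B and plasma cell markers rose (7 listed), Igkc and Jchain among them. Of the dendritic cell markers 1 of 5 tested rose (9 listed), Itgax, from 0 counts to 19.2 CPM, and 2 of 7 tested rose without TKO1. Of the T and NK cell markers 1 of 1 tested rose (10 listed), Cd4, from 0.0396 to 7.60 CPM, and 5 of 5 tested rose without TKO1. Of the mast and eosinophil markers 0 of 2 tested passed (8 listed), and 1 rose without TKO1. Skeletal muscle markers rose in 6 of 8 cases (8 of 8 without TKO1), Ttn and Myh1 among them, and erythroid markers in 4 of 4 tested (6 listed), Hba-a1 and Hbb-bs among them. The muscle list split TKO1 from the other TKO tumours, in genes named after their values were seen. The myogenic regulators Myod1 and Myog stood at 90.5 and 115 CPM in TKO1, 5.26 and 4.92 in TKO2 and 1.43 and 2.96 in TKO3. Acta1 and Ckm were instead lowest in TKO1 among the TKO tumours, at 65.5 and 2.96 CPM.

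Downstream of CSF1R the genes that rose were those typical of blood cells. Of 21 signalling and adaptor genes 8 rose and 0 fell. The median log2 fold change was 1.78 against 0.09 over all genes tested, and 12 rose without TKO1. Pik3cg, a phosphoinositide 3-kinase subunit of leukocytes, stood at 0.14 ± 0.0189 CPM in DKO and 14.5 ± 6.04 CPM in TKO (SD, n = 3), at a log2 fold change of 6.62 (SE 0.64, adjusted p = 0.0111). Inpp5d, the phosphatase SHIP1, went from 0.136 ± 0.193 to 54.8 ± 24.7 CPM (SD, n = 3, adjusted p = 0.0144). The exchange factor Vav1 had 0 counts in DKO and was at least 538-fold higher in TKO. Tyrobp, the DAP12 adaptor, had 2 counts in DKO and a ratio of TKO to DKO of 2760 (exact 95% counting interval 764 to 22797). Fgr, a Src-family kinase, had 3 counts in DKO and a ratio of 196 (66.9 to 955). The general adaptors Grb2 (adjusted p = 0.182) and Shc1 (adjusted p = 0.465), chosen after their values were seen, had 100 and 201 CPM in DKO against 166 and 285 CPM in TKO.

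Of 12 JAK-STAT genes that serve the CSF2 and CSF3 receptors 1 rose and 0 fell, where 7.36% of all genes tested changed. The median log2 fold change was −0.02. Socs2, a feedback inhibitor of cytokine signalling, rose from 7.44 ± 4.23 to 85.7 ± 49.9 CPM (SD, n = 3), at a log2 fold change of 3.53 (SE 0.64, adjusted p = 0.0286) and was highest in TKO1, at 142 CPM. Stat5a, a main transducer of CSF2, had 73.9 ± 21.6 CPM in DKO and 25.9 ± 11.1 CPM in TKO (SD, n = 3, adjusted p = 0.0872). Jak1 had 382 ± 78.1 and 191 ± 60.6 CPM (SD, n = 3, adjusted p = 0.128). Socs3 and Socs1 did not pass (adjusted p = 0.195 and 0.215). Without TKO1 1 gene rose and 1 fell.

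Of the genes that share the beta chain, 1 of 4 was tested. Il3ra, the IL-3 receptor alpha chain, had 50.3 ± 15.1 CPM in DKO and 28.0 ± 4.63 CPM in TKO (SD, n = 3), a log2 fold change of −0.85 (SE 0.32, adjusted p = 0.162). Il3 had 5 counts, all in DKO2. Il5 had 3 counts in all 6 tumours, and Il5ra had 8 counts, all in TKO. Ptprz1 and Sdc1, other binding partners of IL-34, did not pass (adjusted p = 0.129 and 0.734), and 1 of them rose without TKO1. Ptprz1 was at 0.50, 19.9 and 162 CPM in TKO1 to TKO3, so the 3 TKO tumours differed among themselves.

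Of 16 myeloid transcription factors 15 were tested, and 4 rose (5 without TKO1) and 0 fell. The median log2 fold change was −0.05. Spi1, which encodes PU.1, had 1 count in DKO and 528, 3274 and 2466 counts in TKO, a ratio of 5504 (exact 95% counting interval 987 to 217422, adjusted p = 0.0112). Tfec, a macrophage relative of MITF, had a ratio of 519 (92.8 to 20531) on 1 count in DKO. Maf rose from 22.8 ± 1.92 to 133 ± 18.7 CPM (SD, n = 3), at a log2 fold change of 2.55 (SE 0.26, adjusted p = 0.0111). Cebpa, a driver of granulocyte and monocyte fate, rose from 8.34 ± 3.11 to 42.9 ± 18.2 CPM (SD, n = 3, adjusted p = 0.0361). Irf8 had 0.8 ± 1.09 and 32.1 ± 11.1 CPM (SD, n = 3) and missed the threshold (adjusted p = 0.0607).

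Of 20 inflammatory genes 0 rose and 5 fell. The list holds inducers, cytokines often made together with Csf3, and NF-kappaB factors and feedback regulators. The median log2 fold change was −1.40, and 1 rose and 6 fell without TKO1. Cxcl1, a neutrophil chemoattractant, stood at 221, 696 and 400 CPM in DKO and 16.8, 12.6 and 1.89 CPM in TKO (log2 fold change −5.39, SE 0.92, adjusted p = 0.0252). Il33, an alarmin, had 333 ± 202 CPM in DKO and 14.1 ± 12.5 CPM in TKO (SD, n = 3, adjusted p = 0.0456). Nfkbiz, which encodes a co-activator of NF-kappaB targets, fell from 195 ± 22.9 to 26.6 ± 7.48 CPM (SD, n = 3), at a log2 fold change of −2.87 (SE 0.32, adjusted p = 0.0118). Zc3h12a, an RNase that degrades cytokine transcripts, fell from 92.3 ± 14.5 to 17.9 ± 3.12 CPM (SD, n = 3, adjusted p = 0.0125), and Relb, an NF-kappaB subunit, from 84.2 ± 8.61 to 30.4 ± 10.6 CPM (SD, n = 3, adjusted p = 0.0412). Il6 and Lif, named after their values were seen, had 35.8 and 94.1 CPM in DKO and 2.46 and 14.2 CPM in TKO, without passing (adjusted p = 0.0828 and 0.139). Il1b and Il11, named likewise, had higher means in TKO, 5.49 and 8.65 CPM against 0.0852 and 0.515 CPM in DKO, and did not pass either (adjusted p = 0.0681 and 0.218). The inducers Il1a and Tnf, also named likewise, had 0.976 and 1.42 CPM in TKO against 0.407 and 0.778 CPM in DKO. Neither passed (adjusted p = 0.433 and 0.587).

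**Figure D4:**
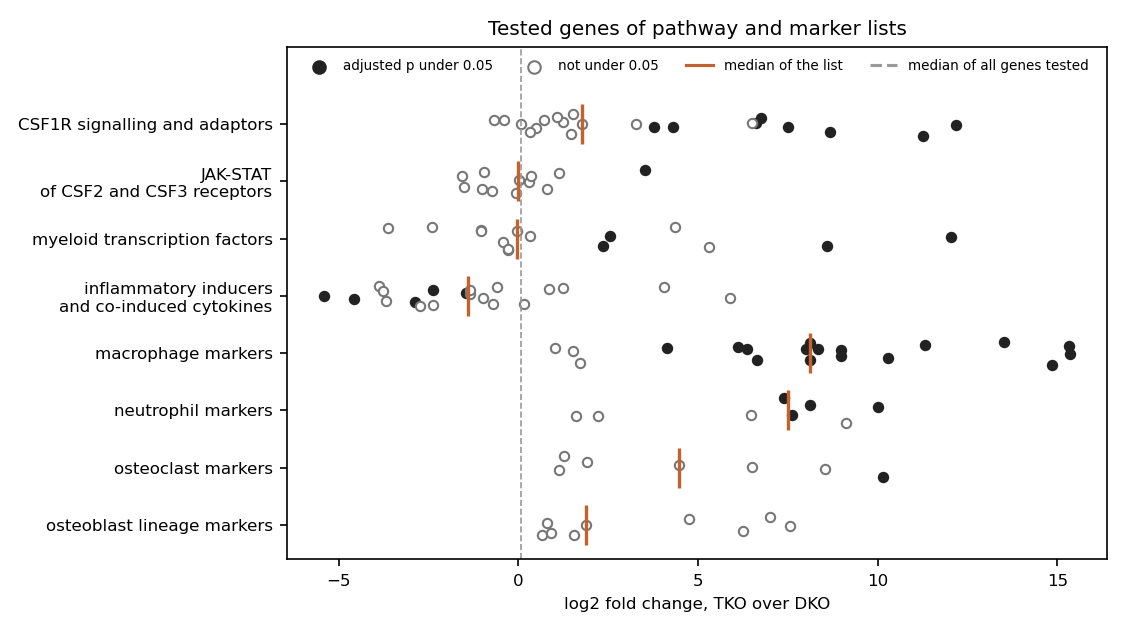
Log2 fold change (TKO over DKO) of each tested gene of 4 pathway lists and 4 cell type lists. Filled points have an adjusted p under 0.05, orange lines are the list medians, and the dashed line is the median of all genes tested, 0.09. Macrophage markers have a median of 8.13 and the inflammatory list one of −1.40. Genes with 0 counts in a group are drawn at their fitted value, which depends on the prior count.

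The genes whose log2 CPM tracked each member most closely over the 6 tumours were found among 13348 named genes, as a description in which all points share the 2 groups and the libraries. For Csf1r they were Btk, Was and Clec4a2, genes of blood cells with 0 counts in every DKO tumour (Pearson r of 0.9995 each), and 545 genes had an r over 0.95. For Csf3r they were Cd300ld (0.9996), Ighv3-6 and Clec10a, with 520 over 0.95. For Csf2rb2 they were Runx3 (0.9981), Cysltr1 and Gdpd5, and for Csf2rb Bcas3 (0.9989), Agap2 and Itpa-ps1. For Csf2ra they were Slc25a20 (0.9971), Itga10 and Hdc. Fewer genes tracked the ligands this closely: 162 for Csf1, led by Pja2 (0.9945), Dzip1 and Zc3h13, 152 for Csf3, led by Washc4 (0.9991), Nus1 and Rmc1, and 104 for Il34, led by Phf6 (0.9961), Ctdp1 and Immt.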

How the data were processed

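Per the labels' protocols, RNA of about 100 mg of fresh tumour was enriched with oligo(dT) beads, and libraries were run on an Illumina HiSeq. The authors deposited raw counts of reads per gene, which STAR 2.6.1 wrote on the mm10 build, per the submitters' processing notes. Which gene annotation they counted on was not given in the sources used here. Of the 3 deposited count columns the either-strand one was used, since the first strand column held 50.2 to 51.3% of stranded counts. The series table held the same values (0 genes differed). The 4 lines of reads assigned to no gene were left out. Of these, reads in more than 1 gene (5.10 to 6.53% of a library) bear on overlapping genes, and reads mapping to several places (3.94 to 4.70%) bear on near-identical ones. Unmapped reads made up 2.53 to 3.20% and those outside genes 5.33 to 9.30%. IDs were matched to symbols and positions through GENCODE M21 (55154 matched).

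Genes were kept by filterByExpr (minimum count 10) and scaled by TMM. TKO was compared with DKO by edgeR's quasi-likelihood test (edgeR 4.0.16, R 4.3.3, robust, no covariate), with Benjamini-Hochberg adjustment over all genes tested and a threshold of 0.05. CPM refers to the effective library size. Group overlap was read from CPM. Folds against a group at 0 used 3 counts over the group, a floor that covers counting error only, as do the 95% intervals of ratios. No 2 libraries of a group were as alike as sampling noise allows. Alternatives included DESeq2 1.42.0 and limma 3.58.1 (voom). The fit was tested on simulated data.

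The members and lists were chosen with earlier results of these data known. Besides the members and Skp2, genes named were up to 5 of smallest p in each pathway, osteoblast, macrophage, neutrophil and osteoclast list and up to 2 of each other list, and the 3 genes most like each tested member. There were 6 pathway and 12 cell type lists. Others are marked as named after their values were seen, apart from Bglap, Runx2 and the C1q genes in the check of the labelled tissue.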

Additional observations from a re-analysis of the deposited data

How the results depend on the processing

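Changes of direction were limited to Il34, which turned from 1.23 to −1.04 (adjusted p = 0.265) without TKO1, and its adjusted p ranged from 0.265 to 0.755 with 1 tumour left out. The other tested members kept their direction under every alternative run. Over all genes 158 were called with at least 1 CPM required in each group, 2893 by DESeq2 and 295 under the replicate block, against 1131, and 0 to 2385 with 1 tumour left out. The count of 0, by edgeR without DKO3, went with 3017 genes at an unadjusted p under 0.05. DESeq2 was not run without single tumours.

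Of the members 1, Csf1r, was called with at least 1 CPM in each group, a filter that left 4 of them tested. That filter removed Csf3, Csf2rb, Csf2rb2 and Csf3r, the other members called in the main fit. Under the replicate block 2 members were called, and Csf2rb (adjusted p = 0.0740), Csf2rb2 (0.0691) and Csf3r (0.0691) lost their calls. With 1 tumour left out 0 to 6 members were called, 3 of them without TKO3. The labels do not say that replicate numbers pair the tumours. Deviations of same-numbered tumours from their group means correlated at −0.00699, 0.00889 and −0.0167, which cannot settle it with 3 tumours a group. Under the block the log2 fold changes of Csf2rb, Csf2rb2 and Csf3r were 7.52, 7.37 and 10.99, against 7.10, 7.48 and 11.06 in the main fit.

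The difference in the Csf1 to Csf1r log2 ratio (−7.94) was −9.24 with 0.1 and −7.13 with 1 CPM per kilobase added. With the strand columns summed, and so every shared read given to Csf1r, it was −5.69. That alternative was chosen after seeing the data, as were the alternatives of the other ratios and the count of each list without TKO1. With 1 tumour left out the difference was −8.29 to −7.69. Other scalings moved the median of all genes by at most 0.03 on the log2 scale. Depth limits Csf2 and the DKO values of Csf2rb, Csf2rb2 and Csf3r, which rest on 0 to 18 counts a library. It also limits the TKO values of Csf3 (2, 0 and 5 counts) and the either-strand DKO values of Csf1r (21, 17 and 19 counts).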
